A study of Mus musculus with 11 samples.

Results

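Itgax, Spp1, Gpnmb, Clec7a, Cst7, Cd9, Ank, Fam20c, Cadm1 and Timp2 are core surface and matrix genes of disease-associated microglia (DAM). These 10 genes were taken by symbol, and 9 of them had a row in the single-nucleus count tables of 31053 genes. The expression of Clec7a was not analysed here. Microglia are the resident macrophages of the brain, and DAM are the state they take up around protein aggregates, dying neurons and damaged myelin, with loss of homeostatic genes and gain of genes for lipid handling, lysosomes and contact with the matrix. NF-κB is the transcription factor family that the kinase IKKβ (gene Ikbkb) releases from its inhibitors, and it drives inflammatory genes in microglia. The surface members are Itgax, the CD11c chain of an adhesion integrin; Cd9, a tetraspanin that organizes membrane partners; Gpnmb, a transmembrane glycoprotein of phagocytes; Cadm1, an immunoglobulin-type adhesion molecule; and Ank, a membrane protein needed for the release of ATP and pyrophosphate. The secreted members are Spp1 (osteopontin, a matrix ligand of integrins and CD44), Timp2, an inhibitor of matrix metalloproteinases, and Cst7 (cystatin F, an inhibitor of cathepsins), and Fam20c is the Golgi kinase that phosphorylates secreted proteins such as osteopontin.

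Nuclei came from the cortex of 11 female mice, with 1 library each. PS19 mice express human tau with the P301S mutation from the prion protein promoter, mainly in neurons, and the question was how the members responded to this tau and to the loss or constant activity of IKKβ in microglia. The 4 non-transgenic mice (Ikbkb+/+) were 9.8 to 10.85 months old, and the 3 P301S+ mice with intact Ikbkb (Ikbkb+/+; P301S+) were 9.15 to 10.75 months old. The 2 Ikbkb-/-; P301S+ mice were 8.39 and 9.15 months old, and the 2 IkbkbCA; P301S+ mice, whose microglia carry constitutively active IKKβ, were 10.85 and 9.8 months old. The knockout came from a line with floxed Ikbkb and the active kinase from a line with a stop-floxed IkbkbCA in Rosa26. Non-transgenic replicates 1 and 2 and P301S+ replicates 1 and 2 belonged to the floxed line, and non-transgenic replicates 3 and 4 and P301S+ replicate 3 to the active line. All mice carried one of those floxed alleles and received tamoxifen, but only the Ikbkb-/- and IkbkbCA mice had Cre, as CreERT2 inserted in 1 copy of Cx3cr1. Against the Cre-negative mice, the change in IKKβ and the loss of 1 Cx3cr1 copy therefore cannot be told apart, and the Cre also acts in other macrophages that express Cx3cr1.

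The libraries held 7500 to 12315 barcodes and 72007219 to 93205362 unique molecular identifiers (UMIs, 1 per captured transcript). Of 114118 nuclei, 103065 were used for clustering. Clusters of 7689, 1846 and 1307 nuclei could not be named from their markers. They enter none of the levels, shares or tests by type below, so statements on other types cover named types only. The cluster named microglia-like held 4369 nuclei, 188 to 721 per mouse, with median depths of 1447 to 2492 UMIs. All 11 microglial markers were raised in it, and Csf1r, the receptor that microglia need to survive, had 857 to 1127 counts per 1000000 UMIs (CPM) there and at most 1.52 CPM in excitatory neuron-like nuclei. Library pairs shared 14 to 44 barcodes. Neuronal transcripts, which free RNA carries into every nucleus, summed over a list of 12 genes to 16481 to 19390 CPM in non-transgenic, 13076 to 18545 CPM in P301S+, 19358 to 19471 CPM in Ikbkb-/-; P301S+ and 13645 to 16617 CPM in IkbkbCA; P301S+ microglia-like nuclei. Ikbkb itself was at 123 to 153 CPM in non-transgenic and 135 to 146 CPM in P301S+ mice, 112 and 117 CPM in the knockout, and 163 and 150 CPM in the IkbkbCA mice. This is a count over the whole gene with its introns and does not read the deleted part alone. In such nuclei, fewer cells in a state and less RNA per cell cannot be told apart from summed counts, and each mouse was 1 replicate.

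Positions are those of GENCODE M21 on GRCm38, where all 9 members with counts are protein-coding genes. Itgax is at chr7:128129547-128150657 on the plus strand, Ank at chr15:27466677-27594909 (plus), Cst7 at chr2:150570415-150578944 (plus) and Gpnmb at chr6:49036546-49070929 (plus). Cd9 is at chr6:125460266-125494791 (minus), Fam20c at chr5:138754514-138810077 (plus), Timp2 at chr11:118301069-118355740 (minus), Cadm1 at chr9:47530173-47857637 (plus) and Spp1 at chr5:104435118-104441050 (plus). Counts included introns, so genes that overlap could share reads. Ank overlaps Otulin on the opposite strand over 52275 bases, Timp2 overlaps Cep295nl on the same strand over 10141 bases, and Cd9 overlaps Gm28809 on the opposite strand over 3316 bases, and these values are uncertain to that extent.

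Of the start-site windows searched, the part up to the GENCODE gene start is shown for Itgax and Ank. These were picked because one was called higher and the other lower in the IkbkbCA mice. The 2 short sites are shown because Cst7 and Gpnmb share the Itgax match. Windows ran from 250 bases before to 50 after a RefSeq start (GRCm38.p6), and 9 of the members have one. AP-1 (TGANTCA, its own reverse complement) matched in 3 of 9 members, Itgax, Gpnmb and Cst7, and in 8.97% of 27025 genes. The PU.1 core (GAGGAA, both strands), the core of the site read by a lineage factor of macrophages, matched in 3 of 9, Ank, Spp1 and Clec7a, and in 31.3% of genes. The NF-κB consensus matched in 0 of 9 and 5.14% of genes, the E-box CACGTG in 0 of 9 and 8.09%, and the M-box TCATGTG in 0 of 9 and 4.31%. A match is a description of letters and not of binding. The sequences run 5′ to 3′ on the plus strand with the match in capitals. The match starts 56 bases before the RefSeq start for Itgax, 71 before for Ank, 6 before for Cst7 and 9 after for Gpnmb. For Itgax and Gpnmb the RefSeq start is not the GENCODE start given above.
Itgax, chr7:128129300-128129546, AP-1: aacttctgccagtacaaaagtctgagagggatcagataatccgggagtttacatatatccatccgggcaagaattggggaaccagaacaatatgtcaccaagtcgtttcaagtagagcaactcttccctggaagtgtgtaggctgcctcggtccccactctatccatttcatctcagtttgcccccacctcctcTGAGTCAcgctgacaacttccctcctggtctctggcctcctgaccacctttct
Ank, chr15:27466427-27466676, PU.1 core: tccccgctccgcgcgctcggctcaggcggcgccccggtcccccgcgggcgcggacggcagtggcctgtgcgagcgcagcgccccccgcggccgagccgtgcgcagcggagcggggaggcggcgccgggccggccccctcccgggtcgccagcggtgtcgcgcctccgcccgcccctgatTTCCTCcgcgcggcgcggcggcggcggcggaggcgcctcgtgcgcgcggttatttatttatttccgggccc
Cst7, chr2:150570397-150570426, AP-1: ttctggttaaaaTGATTCAgcaagaaacca
Gpnmb, chr6:49036514-49036543, AP-1: gccaggggcaagTGACTCAtgagcacgagt

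Across the named cell types of these samples, 4 members were highest in microglia-like nuclei. The types include striatal projection neurons, with 372 to 1568 nuclei per mouse, so not all nuclei of the samples labelled cortex were of cortical types. The types were found without the members and without other DAM genes, each is a cluster named for its markers (astrocyte-like and so on), and the levels are CPM summed per type, with the mean over mice (SD, n = 11). Itgax had 18.3 CPM ± 24.0 in microglia-like nuclei and at most 0.931 CPM in any other named type. Of its 310 UMIs in named types, 269 (86.8%) lay in microglia-like nuclei. Cd9 had 216 CPM ± 81.9, against 128 CPM ± 107 in ependymal or choroid plexus nuclei (n = 10, too few nuclei in some mice for the test), 107 CPM ± 24.0 in oligodendrocyte precursors, 92.8 CPM ± 11.6 in oligodendrocytes and at most 0.753 CPM in the neuronal types. Timp2 had 84.5 CPM ± 25.9, against 64.2 CPM ± 49.1 in ependymal or choroid plexus nuclei (n = 10), with fibroblasts at 51.5 CPM ± 17.1 and oligodendrocytes at 45.8 CPM ± 9.96 next among the types with enough nuclei in every mouse. Cst7 had 3.95 CPM ± 4.47 and at most 0.215 CPM elsewhere. In an exact sign-flip test over the 11 mice on log2(CPM + 1), two-sided and adjusted over 72 pairs of member and type, each of these 4 was higher than in all 8 other types tested, with the highest adjusted p at 0.00439 for Itgax, 0.00639 for Cd9, 0.0285 for Timp2 and 0.0433 for Cst7. Cst7 was higher in 6 of 11 mice, and the other 5 had no Cst7 UMI in microglia-like nuclei. Of all pairs past the test, 9 to 11 were lost without any 1 of those 6 mice. Without any 1 of the other 5 mice, 1 or 2 were lost.

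The other 5 members had higher levels in at least 1 other type. Cadm1 had 2406 CPM ± 230.0 in astrocytes and 973 CPM ± 270.0 in microglia-like nuclei, lower in 11 of 11 mice by 1.34 on the log2 scale (adjusted p = 0.00335, the same exact test). Ank had 510 CPM ± 36.8 in oligodendrocytes, 367 CPM ± 50.96 in excitatory neurons and 200.1 CPM ± 83.0 in microglia-like nuclei, the eighth level of 11, and was lower there than in oligodendrocytes in 11 of 11 mice (log2 difference -1.45, adjusted p = 0.00335). Spp1 had 31.5 CPM ± 22.5 in fibroblasts, 11.1 CPM ± 13.04 in mural cells and 4.10 CPM ± 4.49 in microglia-like nuclei, and was lower than in fibroblasts in 10 of 11 mice (log2 difference -2.86, adjusted p = 0.00439). Gpnmb had 16.1 CPM ± 5.54 in oligodendrocyte precursors and 11.1 CPM ± 31.5 in microglia-like nuclei (log2 difference -2.57, adjusted p = 0.0154). That order is one over all genotypes and turned in 1 of the 2 IkbkbCA; P301S+ mice, replicate 2, with 106 CPM in microglia-like nuclei, while replicate 1 had 4.85 CPM, below the oligodendrocyte precursors of every mouse (7.93 CPM or more for Gpnmb). Fam20c had 49.0 CPM ± 7.14 in striatal projection neurons, 42.5 CPM ± 27.1 in fibroblasts, 37.1 CPM ± 4.52 in inhibitory neurons and 34.8 CPM ± 37.1 in microglia-like nuclei, and the first of these was higher than microglia (log2 difference -1.07, adjusted p = 0.0409) while the difference from inhibitory neurons did not pass the test (adjusted p = 0.122). For Fam20c too the order turned in IkbkbCA; P301S+ replicate 2, with 117 CPM in microglia-like nuclei, and in P301S+ replicate 3, with 91.6 CPM. It did not turn in IkbkbCA; P301S+ replicate 1, with 32.2 CPM. The striatal projection neurons of the IkbkbCA mice had 45.95 to 57.3 CPM. Microglia-like nuclei held 0.853% of the Ank UMIs, 1.77% of those of Cadm1 and 2.66% of those of Fam20c in the named types.

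**Figure D1:**
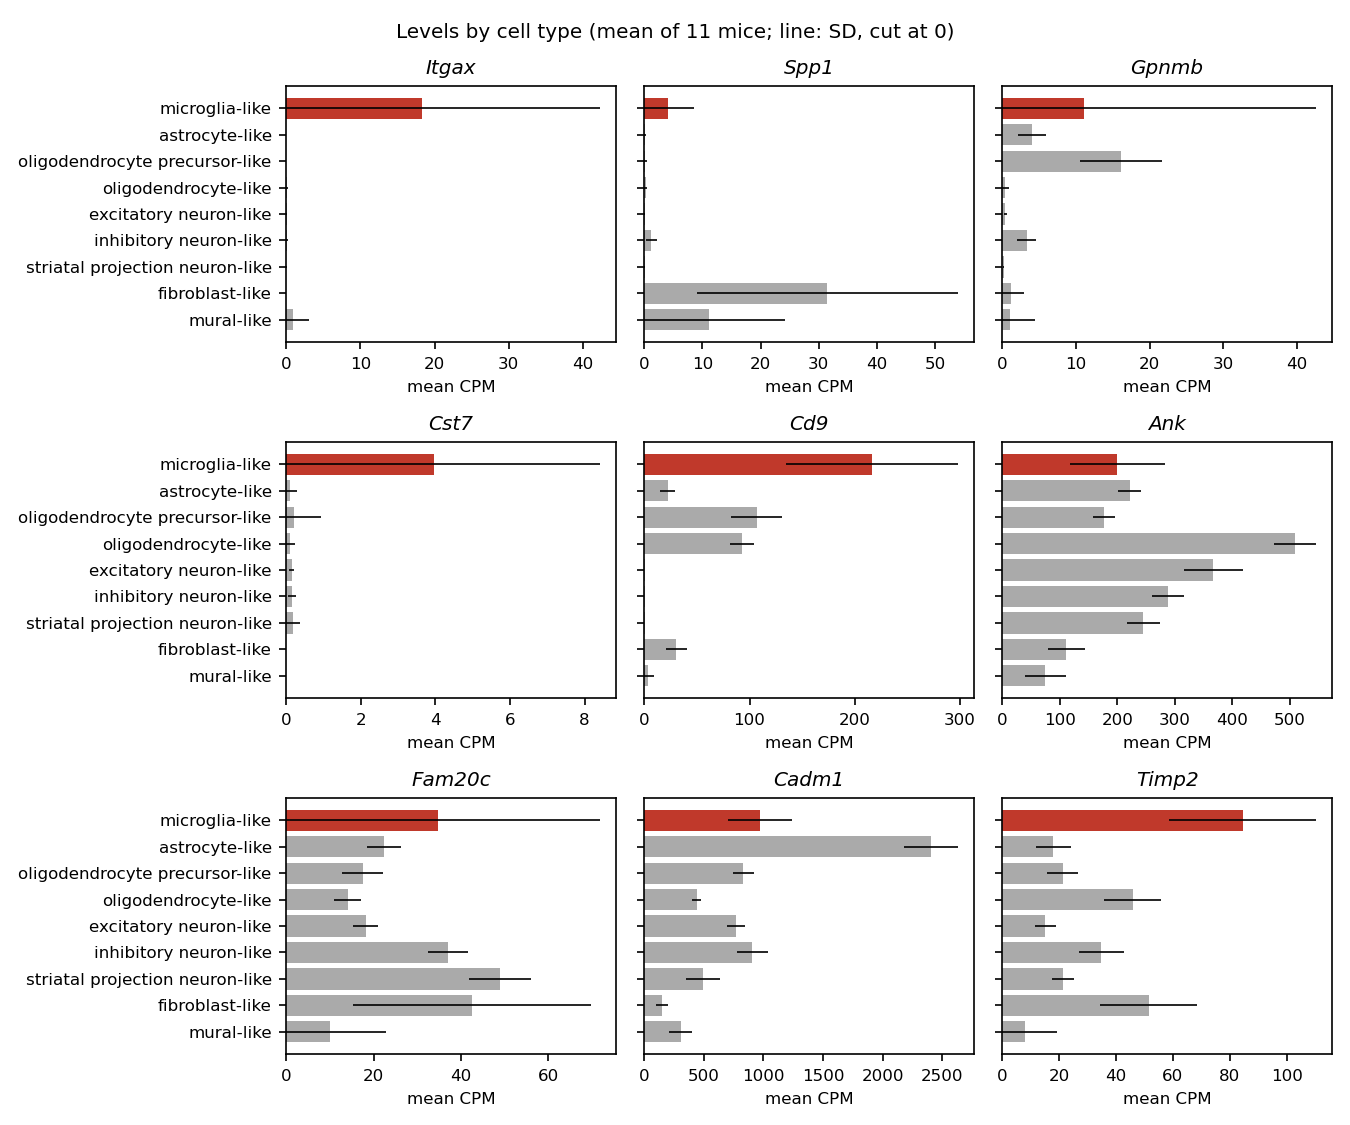
Level of each member by cell type, in CPM, with 1 panel per gene. Bars are the mean of the 11 mice and error bars 1 SD. Itgax stands at 18.3 CPM in microglia-like nuclei and under 1 CPM elsewhere, while Ank is highest in oligodendrocytes (510 CPM) and Cadm1 in astrocytes (2406 CPM).

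Tau with intact Ikbkb went with higher fitted levels of every member that could be tested, but no single member passed the threshold. In microglia-like nuclei, Fam20c was at 7.65, 10.8, 6.38 and 12.7 CPM in the 4 non-transgenic mice and at 15.6, 29.7 and 91.6 CPM in the 3 P301S+ mice. Ank was at 181, 125, 166 and 182 CPM and then at 208, 249 and 376 CPM. Cadm1 was at 872, 848, 910.0 and 755 CPM and then at 914, 1167 and 1706 CPM. In all 3 the groups did not overlap, and P301S+ replicate 3, the only one of its group from the active line, was the highest. Timp2 did not overlap either, at 68.9, 50.6, 74.4 and 62.2 CPM and then at 80.7, 89.0 and 119 CPM. Of the 6 members with enough counts for the test, these 4 were higher with no overlap, beside 3.63% of 8921 genes.

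Itgax and Cd9 overlapped. Itgax was at 2.55, 3.62, 6.38 and 2.83 CPM in non-transgenic mice and at 2.60, 13.2 and 50.8 CPM in P301S+ mice, so that 1 P301S+ mouse lay at the control level and 1 stood far above both others. Those values rest on 1, 2, 3 and 2 UMIs and then on 1, 8 and 76 UMIs. Cd9 was at 253, 246, 97.8 and 103 CPM in non-transgenic mice and at 190, 361 and 322 CPM in P301S+ mice. The lower pair of non-transgenic values came from the active line. A separate test of floxed against active line within the 4 non-transgenic mice called Cd9 (log2 difference 1.32, edgeR's quasi-likelihood test with Benjamini-Hochberg adjustment, adjusted p = 0.0144), beside 0.269% of genes.

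With edgeR's quasi-likelihood test and Benjamini-Hochberg adjustment over 8921 genes, 0 of the 6 members were called (adjusted p under 0.05 and log2 fold change beyond 0.1), beside 0.123% of all genes. At an unadjusted p under 0.05 there were 6 of 6 members and 691 of 8921 genes, and DESeq2 called 0, with 5 at that unadjusted level. Itgax and Fam20c, at no more than 6.38 and 12.7 CPM in non-transgenic mice, passed the count filter only through mice where they were high, so a difference in them is partly fixed by the filter and these counts are a description. Log2 fold changes (± SE) were 2.89 ± 0.78 for Itgax (adjusted p = 0.167), 2.46 ± 0.62 for Fam20c (0.146), 0.79 ± 0.19 for Ank (0.136) and 0.77 ± 0.27 for Cd9 (0.398). For Timp2 the value was 0.64 ± 0.20 (0.302) and for Cadm1 0.57 ± 0.15 (0.167). The median over the 6 was 0.78 and over all genes tested -0.01. Within the floxed line 0 members were called, with log2 fold changes of 1.46 for Itgax, 1.32 for Fam20c, 0.62 for Ank and 0.18 for Cd9. Within the active line the values were 3.49 for Itgax, 3.12 for Fam20c, 1.07 for Ank, 1.63 for Cd9 and 0.999 for Cadm1, but they rest on 1 P301S+ mouse, so that tau and that mouse cannot be told apart there. A test of the difference between the lines called no member (adjusted p = 0.25 for Cd9 and 0.356 for Cadm1, edgeR). With breeding line as a covariate, Ank alone of the members was called (0.83, adjusted p = 0.0287, edgeR), beside 25 of all genes. Without P301S+ replicate 1, the test called 4 members, Itgax, Ank, Fam20c and Cadm1, beside 33 of all genes. Without either IkbkbCA; P301S+ mouse it called Fam20c. Those mice are not compared here, but they enter the count filter and the normalization as well as the shared spread.

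Spp1, Gpnmb and Cst7, the members with the fewest counts, fell below the count filter and were compared by an exact permutation test over mice. Cst7 was at 0 in all 4 non-transgenic mice and at 2.60, 6.59 and 10.0 CPM in P301S+ mice, from 1, 4 and 15 UMIs. The groups did not overlap, and the two-sided p was 0.0286, the smallest that 4 against 3 allows, or 0.4 after adjustment over 18 tests. The P301S+ mean of 6.41 CPM was 4.53 times the 1.41 CPM that 3 counts over the whole non-transgenic group would give. That ratio leaves out the error of the P301S+ values and is not a least fold. In single non-transgenic mice 3 counts would give 4.24 to 7.65 CPM, above P301S+ replicate 1. No Cst7 UMI in 1086 non-transgenic nuclei allows a share of nuclei with one of up to 0.276%, for counting error only. Spp1 was at 0, 3.62, 2.13 and 0 CPM and then at 0, 8.24 and 8.02 CPM, and Gpnmb at 0, 1.81, 0 and 0 CPM and then at 0, 0 and 6.02 CPM, so both overlapped (p = 0.257 and 0.714, exact permutation test).

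**Figure D2:**
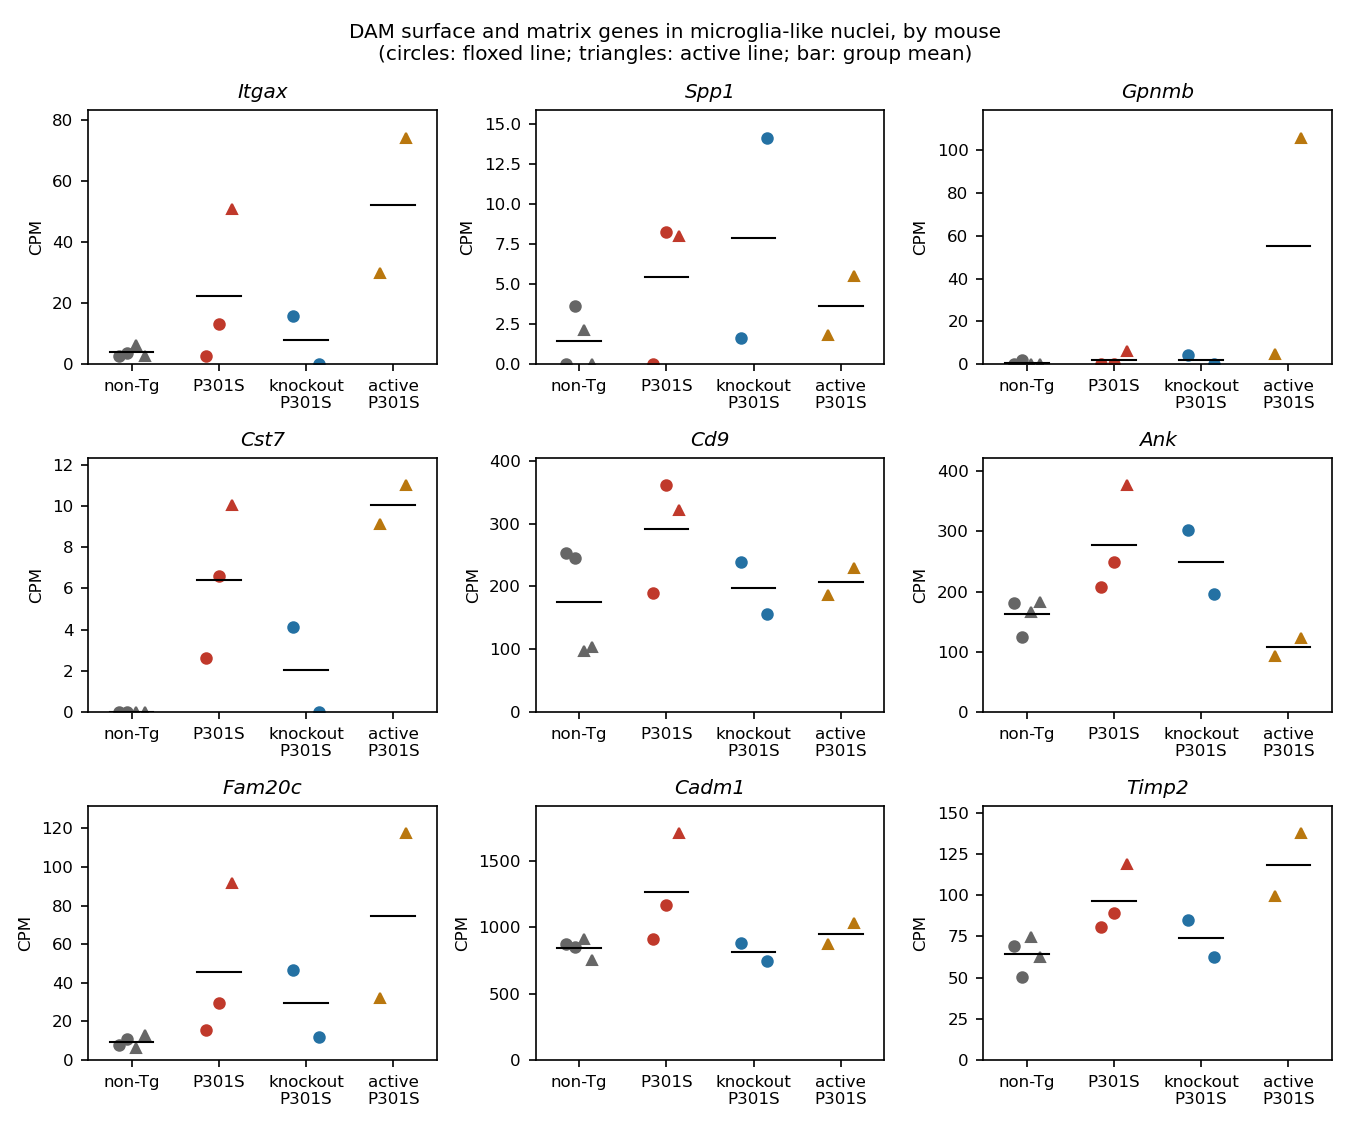
Level of each member in microglia-like nuclei, in CPM, with 1 point per mouse, circles for the floxed line and triangles for the active line, and a bar at the group mean. P301S+ replicate 3 and IkbkbCA; P301S+ replicate 2 are the highest points for Itgax (50.8 and 74.2 CPM) and Fam20c (91.6 and 117 CPM), while for Ank the IkbkbCA mice are at the bottom (92.8 and 123 CPM).

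Loss of IKKβ in P301S+ mice gave lower fitted levels for all 6 members, none past the threshold. Cadm1 was at 883 and 746 CPM in the Ikbkb-/-; P301S+ mice, below all 3 P301S+ mice (log2 fold change -0.63 ± 0.18, adjusted p = 0.421, edgeR). It was the only member of 6 to be lower with no overlap, beside 13.1% of genes. The 2 knockout mice differed from each other in Itgax, at 15.6 and 0 CPM, from 19 and 0 UMIs. The second value was 0 of 188 nuclei, which allows a share of up to 1.60%, and the first lay above P301S+ replicates 1 and 2 (log2 fold change -1.45 ± 0.69, adjusted p = 0.555, edgeR). Fam20c was at 46.9 and 12.1 CPM, Ank at 302 and 196 CPM, Cd9 at 238 and 156 CPM, and Timp2 at 84.7 and 62.7 CPM. In each of these, replicate 1 was the higher.

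The fitted log2 fold changes were -0.67 ± 0.54 for Fam20c, -0.55 ± 0.31 for Cd9, -0.39 ± 0.22 for Timp2 and -0.16 ± 0.22 for Ank. EdgeR called 0 of 6 members and 0% of genes, with 2 members and 791 of 8921 genes at an unadjusted p under 0.05 (DESeq2 called 0, with 1 member and 391 genes at that level). The median was -0.59 over the 6 members and -0.02 over all genes. Within the floxed line alone, to which both knockout mice belong, the values turned to 0.22 for Itgax, 0.52 for Fam20c and 0.13 for Ank. Against non-transgenic mice, edgeR also called 0 of 6 members and 0% of genes, with 2 members and 454 genes at an unadjusted p under 0.05 (DESeq2 0, with 1 member and 189 genes). Those were Fam20c (log2 fold change 1.79 ± 0.72) and Ank (0.63 ± 0.22), both with an adjusted p of 0.905.

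Of the low members, Cst7 was at 4.11 and 0 CPM in the knockout, Gpnmb at 4.11 and 0 CPM, and Spp1 at 1.64 and 14.1 CPM. Spp1 thus stood highest of all 11 mice in knockout replicate 2, which had no UMI of the other 2. Those 7 Spp1 UMIs lay in 1 nucleus. None of the 3 separated the knockout from the P301S+ mice (exact permutation test, p = 0.3, 1 and 0.8 for Cst7, Gpnmb and Spp1, where 0.1 is the smallest possible).

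With constantly active IKKβ, Ank was called lower and Itgax, Fam20c and Timp2 were called higher, against different groups. Ank fell, to 92.8 and 123 CPM in the IkbkbCA; P301S+ mice, below each of the other 9 mice, with the P301S+ mice at 208 to 376 CPM. Its log2 fold change against P301S+ was -1.43 ± 0.23, or 0.37-fold, with an adjusted p of 0.00079 (edgeR's quasi-likelihood test). It was the 1 member of 6 called, by edgeR and by DESeq2, beside 1.61% of genes. Those 144 genes became 68 without P301S+ replicate 2, 75 without IkbkbCA; P301S+ replicate 2 and 221 without P301S+ replicate 3. With the likely doublets kept, Ank was at -0.81 and lost the call (adjusted p = 0.0734). Ank also fell against the Ikbkb-/-; P301S+ mice (302 and 196 CPM), by 1.27 ± 0.24 on the log2 scale (0.415-fold, adjusted p = 0.00462, edgeR), the 1 member called there beside 1.95% of genes (174 genes, 73 without knockout replicate 2, 101 without knockout replicate 1, 303 without P301S+ replicate 3 and 24 with age as a covariate). That call was lost without knockout replicate 1 (-0.87, adjusted p = 0.236), without IkbkbCA; P301S+ replicate 1 (-1.07, adjusted p = 0.0806), with the likely doublets kept (-0.60, adjusted p = 0.336) and with age as a covariate (-1.37, adjusted p = 0.148). Both of those groups carry the Cre insertion, but they come from different lines.

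Itgax was at 29.7 and 74.2 CPM in the IkbkbCA; P301S+ mice and rose 12.9-fold against non-transgenic mice (log2 fold change 3.69 ± 0.72, adjusted p = 0.00334, edgeR). Fam20c was at 32.2 and 117 CPM and rose 7.25-fold (2.86 ± 0.61, adjusted p = 0.00684), and Timp2 was at 99.5 and 137 CPM and rose 1.81-fold (0.86 ± 0.20, adjusted p = 0.0164). The non-transgenic mice held 1, 2, 3 and 2 Itgax UMIs and 3, 6, 3 and 9 Fam20c UMIs, and both genes passed the count filter only through mice where they were high, so their folds are fitted values of low precision and their difference is partly fixed by the filter. In all 3 both mice lay above the 4 non-transgenic mice. These 3 of 6 members were called beside 3.88% of genes (346, or 159 without IkbkbCA; P301S+ replicate 2), and the same 3 were higher with no overlap beside 12.3% of genes. DESeq2 called 2 and not Itgax (3.74, adjusted p = 0.104). Without IkbkbCA; P301S+ replicate 2, edgeR called 0 of them, with log2 fold changes of 2.90 for Itgax (adjusted p = 0.0667), 1.67 for Fam20c (0.219) and 0.62 for Timp2 (0.249). Timp2 also lost its call without non-transgenic replicate 2 (0.76, adjusted p = 0.0707, edgeR), with breeding line as a covariate (0.72, adjusted p = 0.0853) and with the likely doublets kept (0.66, adjusted p = 0.125). Cd9 (186 and 229 CPM, log2 fold change 0.23) and Cadm1 (869.6 and 1029 CPM, 0.13) did not pass the test, and Ank was at -0.64 ± 0.22 (adjusted p = 0.143). With breeding line as a covariate Ank was called lower (-0.83, adjusted p = 0.0358, edgeR), so the count stayed at 3 with Ank in place of Timp2.

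Against P301S+ mice the same 3 members were not called, at 0.79 ± 0.49 for Itgax, 0.40 ± 0.45 for Fam20c and 0.22 ± 0.20 for Timp2. Without P301S+ replicate 3, the P301S+ mouse with the most Itgax, Itgax was called (2.46, adjusted p = 0.0332, edgeR). Cd9 was at -0.54 ± 0.30 and Cadm1 at -0.44 ± 0.18. Within the active line alone, Itgax was at 0.03, Fam20c at -0.30, Ank at -1.80 and Cadm1 at -0.84, but these values rest on 1 P301S+ mouse, which was the highest of all mice for Ank and Cadm1. Against the knockout, Itgax was at 2.25 ± 0.66 (adjusted p = 0.086, edgeR), and it was called without P301S+ replicate 1 (2.25, adjusted p = 0.0452), without P301S+ replicate 3 (2.24, adjusted p = 0.0165) and without IkbkbCA; P301S+ replicate 1 (2.78, adjusted p = 0.0217). Itgax is also a gene of dendritic cells. A list of 8 dendritic cell and monocyte markers summed to 33.2 to 55.3 CPM in non-transgenic, 15.6 to 39.4 CPM in P301S+, 34.4 to 37.0 CPM in Ikbkb-/-; P301S+ and 80.1 and 115 CPM in IkbkbCA; P301S+ mice, with Xcr1 and S100a9 at 0 in all mice. Zbtb46 had 250 UMIs in the IkbkbCA; P301S+ mice and 43 in non-transgenic mice, and without it the other 7 genes summed to 7.89 and 24.7 CPM there and to 12.8 to 28.1 CPM in non-transgenic mice. The part of such cells in the Itgax values was not tested. Perivascular macrophage markers, all 8 of which had counts, summed to 235 to 723 CPM in non-transgenic, 277 to 539 CPM in P301S+, 427 to 550 CPM in Ikbkb-/-; P301S+ and 218 to 358 CPM in IkbkbCA; P301S+ mice. The 128 nuclei with at least 2 UMIs of those markers, Stab1 not counted, were also left out. This left 3 members called in the IkbkbCA; P301S+ mice against non-transgenic mice and 1 against P301S+ mice. Stab1 had 1927 UMIs, the most of the 8, so the sums above rest largely on a gene that did not pick those nuclei.

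Cst7 was also high in both IkbkbCA; P301S+ mice, and Gpnmb in replicate 2 alone. Gpnmb was at 4.85 and 106 CPM, from 8 and 154 UMIs, and Cst7 at 9.10 and 10.99 CPM, from 15 and 16 UMIs. P301S+ replicate 3 had 6.02 CPM of Gpnmb and 10.0 CPM of Cst7. In the IkbkbCA mice both genes lay above all 4 non-transgenic mice (exact permutation test, p = 0.0667 for each, the smallest that 2 against 4 allows, adjusted p = 0.4). Of the genes tested by edgeR, which leave out these 2, 12.3% did so. The mean of Cst7 was 7.11 times the same non-transgenic group floor, again without the error of the IkbkbCA values. Spp1 was at 1.82 and 5.50 CPM, within the range of the P301S+ mice. Nearly all Gpnmb counts of the group thus came from replicate 2.

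**Figure D3:**
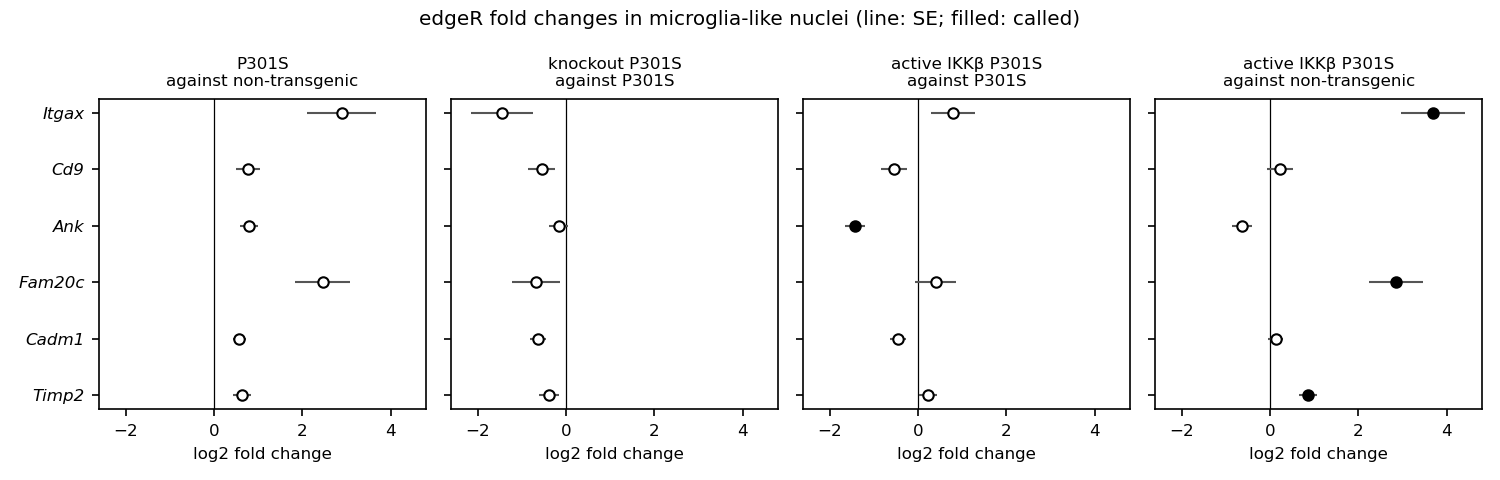
Log2 fold change from edgeR in microglia-like nuclei for the 6 members tested, with 1 panel per comparison, bars of 1 SE, and filled points for calls. Ank lies at -1.43 for IkbkbCA; P301S+ against P301S+, and Itgax (3.69), Fam20c (2.86) and Timp2 (0.86) are filled for IkbkbCA; P301S+ against non-transgenic mice.

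Shares of nuclei with a UMI showed how widely each member was detected. After thinning each nucleus to 1000 UMIs, which left out 21 of 4369 nuclei, Ank was detected in 13.1% ± 2.44 (SD, n = 4) of non-transgenic, 18.9% ± 3.47 (n = 3) of P301S+, 18.4% ± 3.07 (n = 2) of Ikbkb-/-; P301S+ and 9.29% ± 1.79 (n = 2) of IkbkbCA; P301S+ microglia-like nuclei. Fam20c was detected in 0.884% ± 0.285, 3.70% ± 3.12, 2.50% ± 1.51 and 4.63% ± 3.04 in the same order, and Timp2 in 6.05% ± 0.933, 8.77% ± 1.86, 6.40% ± 1.65 and 10.2% ± 2.42. Itgax was detected in 0.425% ± 0.190, 1.89% ± 2.03, 0.602% ± 0.852 and 3.82% ± 1.89. Cadm1, the most widely detected, stood at 53.1% ± 2.70, 62.0% ± 9.52, 49.5% ± 1.54 and 54.7% ± 5.22.

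P301S+ and non-transgenic shares separated with P301S+ higher for 4 of 9 members, Cst7, Ank, Fam20c and Timp2, beside 2.44% of the 20518 genes with a UMI, and for 3 of the 6 members tested by edgeR, beside 3.5% of those genes. Without thinning only Cst7 separated, 1 of 9, and the share over all genes was not computed for that setting. Each of the 4 was at p = 0.0286 (exact permutation test, two-sided), and the adjusted p over 27 tests was 0.193 for each. In Ank the IkbkbCA; P301S+ share lay below all P301S+ mice (p = 0.1, the smallest possible, exact permutation test), the 1 member of 9 to separate there. The knockout shares lay below all P301S+ mice for 2 members, Cadm1 and Timp2 (p = 0.2 and 0.3, exact permutation test). The share over all genes was not computed for these 2 comparisons, so these counts are a description and no result about the members. By CPM, 13.1% of the 8921 genes tested by edgeR were lower with no overlap in the knockout against P301S+ mice. Without thinning, Itgax had a UMI in 0.444%, 0.712%, 1.16% and 0.623% of non-transgenic nuclei, 0.394%, 2.48% and 7.91% of P301S+ nuclei, 2.94% and 0% of knockout nuclei, and 5.69% and 10.9% of IkbkbCA; P301S+ nuclei. Excitatory neuron-like nuclei, which should lack it and were deeper (median 10186 against 2078 UMIs), had one in 0.0640%. The neuronal share was 0.147% for Cst7 and 0.0584% for Spp1. For Gpnmb it was 0.392% at the greater neuronal depth. At 1000 UMIs the mean Gpnmb share was 0.0492% in these neurons, and in microglia-like nuclei 0.0416% in non-transgenic, 0.123% in P301S+, 0.136% in Ikbkb-/-; P301S+ and 1.59% in IkbkbCA; P301S+ mice, from 1, 4, 3 and 28 nuclei with a UMI before thinning.

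Within a mouse, nuclei with an Itgax UMI also held more of other members. Mice with at least 10 such nuclei were P301S+ replicate 3 (57 of 721), Ikbkb-/-; P301S+ replicate 1 (16 of 544) and IkbkbCA; P301S+ replicates 1 (39 of 686) and 2 (62 of 567). Fam20c was at 281 CPM in Itgax-positive and 73.8 CPM in other nuclei of P301S+ replicate 3, at 133 and 43.5 CPM in the knockout mouse, and at 223 and 18.8 CPM and 630 and 38.8 CPM in the IkbkbCA; P301S+ mice. Ank was at 641 and 352 CPM, 709 and 286 CPM, 111 and 91.6 CPM, and 191 and 113 CPM in the same order. Ank was therefore higher in the Itgax-positive nuclei of each of these mice, also in the IkbkbCA mice, where its overall level was the lowest. In IkbkbCA; P301S+ replicate 1 that small difference rests on 12 of 153 Ank UMIs. Spp1, Gpnmb and Cadm1 were likewise higher in 4 of 4 mice, and Cst7 and Timp2 in 3 of 4. Some of these rest on very few UMIs, as Spp1 in the knockout mouse, with 1 UMI in each set of nuclei, and Gpnmb in P301S+ replicate 3, with 2 UMIs against 7. Cd9 was higher in 3 mice and nearly equal in the knockout mouse, at 244 against 238 CPM.

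Of genes outside the members, Apoe and Lpl, which handle lipids, the lectin Lgals3 and the motor protein Myo1e were higher in 4 of 4 mice. The homeostatic genes P2ry12, a purine receptor, and Tmem119 were lower in 4 of 4. Cx3cr1 was lower in 3 mice and nearly equal in P301S+ replicate 3, at 781 against 786 CPM. P2ry12 was at 547 and 860 CPM, 509 and 799 CPM, 501 and 873 CPM, and 361 and 843 CPM. Mrc1, a marker of perivascular macrophages, was also lower in 4 of 4. Of the 101 Itgax-positive nuclei of the IkbkbCA; P301S+ mice, 17 had a UMI of Zbtb46, 3 of Clec9a, 1 of Flt3, 1 of Ccr2 and 0 of Xcr1. Itgax-positive nuclei were the deeper ones, with median depths of 2183 against 2021, 2738 against 2120.5, 2739 against 2323 and 3118 against 2450 UMIs. The split was made on a measured UMI in cells of 1 library, so these values are descriptions without a test, and the part of depth was not tested.

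**Figure D4:**
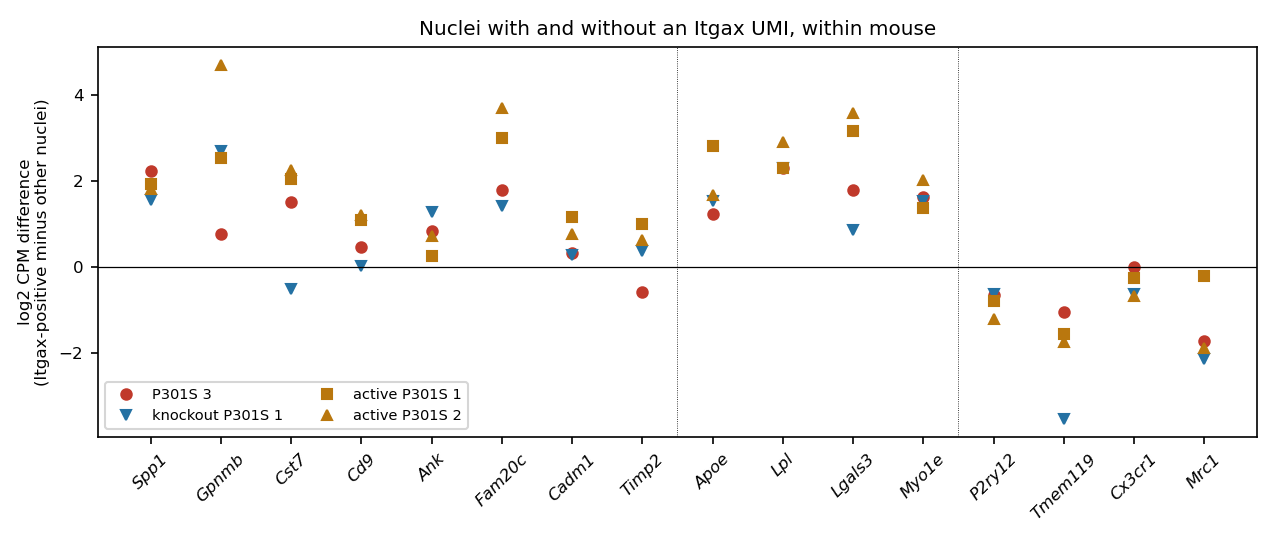
Difference in log2(CPM + 10) between nuclei with and without an Itgax UMI, for 16 genes in the 4 mice with at least 10 such nuclei, with 1 point per mouse. Fam20c lies above 0 in all 4 mice and P2ry12 and Tmem119 below 0 in all 4.

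In IkbkbCA; P301S+ replicate 2 most counts of several members came from few nuclei. Its 62 Itgax-positive nuclei held 122 of the 171 Fam20c UMIs (71.3%) and 133 of the 154 Gpnmb UMIs (86.4%). From lower counts, they also held 11 of the 16 Cst7 UMIs and 6 of the 8 Spp1 UMIs. For Cd9, Ank, Cadm1 and Timp2 the part was 19.5 to 26.7%. Only 24 nuclei had a Gpnmb UMI, and 1 of them had 33. In those 24 nuclei Fam20c was at 905 CPM against 71.3 CPM in the rest, Lgals3 at 421 against 11.6 CPM, Ank at 260 against 115 CPM and P2ry12 at 74.3 against 821 CPM. After thinning, 2 or more of the 5 low members (Itgax, Spp1, Gpnmb, Cst7 and Fam20c) were found together in 23 of the 68 nuclei that had any of them in this mouse. The number was 7 of 78 in P301S+ replicate 3, 6 of 29 in IkbkbCA; P301S+ replicate 1, 1 of 4 in P301S+ replicate 1, and 0 in each of the other 7 mice, including 0 of 30 in knockout replicate 1.

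Other DAM genes were followed in a list of 35, of which 28 were tested. P301S+ against non-transgenic mice gave 2 that rose, Csf1, a growth factor of microglia (log2 fold change 2.73 ± 0.50, adjusted p = 0.0311), and Myo1e (1.88 ± 0.31, adjusted p = 0.0212, edgeR's quasi-likelihood test). Over all genes 11 were called in that comparison and 0 without P301S+ replicate 3, with the likely doublets kept or within the floxed line, so both calls were lost there. Both calls were also lost without non-transgenic replicate 3 or 4 and with the title number as a replicate block, that of Csf1 also without non-transgenic replicate 2 or P301S+ replicate 2, and that of Myo1e with DESeq2. Csf1 was at 8.55 CPM ± 6.57 in non-transgenic (n = 4) and 46.8 CPM ± 23.6 in P301S+ mice (n = 3). At no more than 17.9 CPM in non-transgenic mice, it passed the count filter only through mice where it was high. Its difference is therefore partly fixed by the filter, and its call is a description. The median of the list was 0.77, with 27 of 28 above 0. In the knockout against P301S+ mice 0 were called, and 23 of 28 were below 0 with a median of -0.47. IkbkbCA; P301S+ against non-transgenic mice gave 9 of 28 that rose, beside 2.41% of all genes called higher, among them the receptor kinase Axl (3.52 ± 0.54, adjusted p = 0.000274), Cybb, the catalytic part of the phagocyte oxidase (3.35 ± 0.69, adjusted p = 0.00567), Lgals3bp (2.80 ± 0.53, adjusted p = 0.00255), the cathepsin Ctsz (1.05 ± 0.23, adjusted p = 0.0106), and B2m (1.15 ± 0.23, adjusted p = 0.00419) and H2-K1 (1.74 ± 0.39, adjusted p = 0.0107) of antigen presentation, all by edgeR. Axl, Lgals3bp and Cybb were at no more than 12.8, 10.2 and 7.23 CPM in non-transgenic mice. They passed the count filter only through mice where they were high, so their difference is partly fixed by the filter. The count of 9 is therefore a description. The 9 became 4 without IkbkbCA; P301S+ replicate 2, 4 with doublets kept, 5 with line as a covariate and 4 by DESeq2. Axl, Lgals3bp and B2m kept their calls under all 19 alternatives, while Cybb and Ctsz lost their calls in 2 each, both of them without IkbkbCA; P301S+ replicate 2, and H2-K1 in 3. Against P301S+ mice 0 of the 28 were called, beside 0.986% of all genes called higher, and the median was 0.0037, and against the knockout B2m alone rose (1.21 ± 0.27, adjusted p = 0.0151, edgeR), a call lost without either knockout mouse, without IkbkbCA; P301S+ replicate 1, with doublets kept and with line or age as a covariate.

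Of 20 homeostatic genes, all tested, 2 were called lower in the IkbkbCA; P301S+ mice against P301S+ mice and 5 against non-transgenic mice, beside 0.628% and 1.47% of all genes called lower, and none higher. Against P301S+ mice Crybb1 fell by 1.74 ± 0.38 on the log2 scale (adjusted p = 0.0176, edgeR) and Fcrls by 2.86 ± 0.64 (adjusted p = 0.0209). Neither was called there without P301S+ replicate 1 or 2, without IkbkbCA; P301S+ replicate 2, within the active line, with line as a covariate or with doublets kept. Fcrls was at 275 CPM ± 197 in P301S+ and 36.6 CPM ± 12.3 in IkbkbCA; P301S+ mice. Against non-transgenic mice 5 fell, with Siglech (-0.61 ± 0.14), Slc2a5 (-0.98 ± 0.26) and Cx3cr1 (-0.54 ± 0.15) beside those 2. Crybb1 and Fcrls kept these calls under all 19 alternatives, and Siglech lost its call in 3, Slc2a5 in 5 and Cx3cr1 in 9, each of them without IkbkbCA; P301S+ replicate 2 and without non-transgenic replicate 1. Cx3cr1 is the gene that holds the Cre insertion. Against the knockout, which carries the same insertion, Crybb1 fell by 2.33 ± 0.38 and Fcrls by 3.61 ± 0.66 (adjusted p = 0.00103 and 0.003, edgeR), and both calls were lost with age as a covariate, and that of Fcrls also with line. In the comparison of P301S+ with non-transgenic mice 0 of 20 were called and 16 were below 0, and in the knockout against P301S+ mice 0 were called and 10 were below 0.

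Binding partners and substrates of the members, a list of 35 with 29 tested, had no call in P301S+ against non-transgenic mice or in the knockout against P301S+ mice. Ptgfrn, a membrane partner of Cd9, rose in the IkbkbCA; P301S+ mice, from 25.5 CPM ± 10.5 in P301S+ mice to 91.9 CPM ± 9.88 (log2 fold change 1.67 ± 0.28, adjusted p = 0.0016, edgeR). Its log2 fold change was 2.31 ± 0.30 against non-transgenic mice and 2.37 ± 0.35 against the knockout, the last of which lost its call with line or age as a covariate. The metalloproteinases Mmp2 and Mmp14, which Timp2 binds, rose against non-transgenic mice (1.54 ± 0.38, adjusted p = 0.0223, and 1.42 ± 0.38, adjusted p = 0.0391, edgeR), as did the cathepsin Ctsh (0.76 ± 0.19, adjusted p = 0.028). Itga9, a chain of an osteopontin receptor, fell by 0.89 ± 0.17 (adjusted p = 0.00334, edgeR). Without IkbkbCA; P301S+ replicate 2 none of these 4 was called, and Mmp2, Mmp14 and Ctsh also lost their calls without non-transgenic replicate 1, with line as a covariate and with doublets kept. Without non-transgenic replicate 2, 3 or 4 and with DESeq2, 2 of these 3 calls were lost each time. Mmp2 and Mmp14 were at no more than 14.1 and 16.3 CPM in non-transgenic mice. They passed the count filter only through mice where they were high, so their difference is partly fixed by the filter. These lists were compared by counts and medians only.

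Outside microglia, the members gave no call. In 8 other types and 3 comparisons, 0 of 126 pairs of member and comparison were called by edgeR, beside 0.0122% of all pairs, with 9 of the 126 and 16692 of the 278322 pairs of all genes at an unadjusted p under 0.05. DESeq2 was not run there. Among genes other than the members, those whose level followed the mean of the 6 tested members most closely over the 11 mice were Adcy7 (Pearson r = 0.948), AU020206 (0.946), Mitf (0.943), Fam13b (0.931) and Tns3 (0.928). They were picked as the highest of all genes tested, and the 11 points share their groups and lines. Mitf, a transcription factor of lysosomal and pigment genes, was at 559, 546, 506 and 501 CPM in non-transgenic, 698, 687 and 929.8 CPM in P301S+, 752 and 493 CPM in Ikbkb-/-; P301S+ and 670.0 and 793 CPM in IkbkbCA; P301S+ mice. In Mitf too, knockout replicate 2 lay at the non-transgenic level and P301S+ replicate 3 at the top.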

How the data were processed

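Per the labels and the study's methods, cortical nuclei were captured with 10x 3′ chemistry, and the authors aligned reads to mm10 with introns counted in Cell Ranger 3.1.0 and analysed them in Seurat 3.0. The deposited values are UMI counts per gene and barcode, 1 table for each of 11 mice. The labels give female mice, whereas the methods name male mice for RNA sequencing; all 11 libraries were used as labelled.

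A barcode passed when it had between 300 and 8000 genes and a mitochondrial share no higher than 5%, which 112539 of 114118 did; 23 exceeded the gene limit and 1556 the mitochondrial one. Likely doublets (9474, 8.42%) were removed by scoring against simulated pairs, since DoubletFinder was not run here. Clusters came from 2000 variable genes, without the members and other DAM genes, 15 principal components and Leiden clustering (leidenalg 0.10.2), and were named from marker genes. Counts were summed per mouse and type and tested with edgeR 4.0.16 (quasi-likelihood, TMM, filterByExpr, 1 term per genotype over all 11 mice) in R 4.3.3, with DESeq2 1.42.0 as an alternative. Calls needed an adjusted p under 0.05 and a log2 fold change beyond 0.1. CPM are per 1000000 UMIs of that type in that mouse. Values with few counts, shares of nuclei and cell types were compared by exact permutation over mice (scipy 1.17.1). The scripts were tested on simulated data. The floor of 3 counts covers counting error only, and replicates are separate mice. Motifs were searched in RefSeq windows.

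The members and lists were chosen with earlier results of these data known. All members are named, as are genes of the 3 lists called in a comparison (up to 6 a list and comparison by smallest p) and the 5 genes most like the members in pattern. Alternatives were another normalization, no filter, other pseudocounts and thinning, line, age or title number as a covariate, kept doublets, each line alone and each replicate left out. Leaving out nuclei with perivascular macrophage markers was added after seeing the data.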

Additional observations from a re-analysis of the deposited data

Results flagged for a closer look

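In 16 sets of 4 non-transgenic values, 3 had a sample far from the others, and chance gives such a gap in about 1 set in 20 where values are continuous. Gpnmb was at 1.81 CPM in non-transgenic replicate 2, from 1 UMI, and at 0 in the other 3 mice. The same UMI made the share of nuclei with Gpnmb 0.166% in that mouse after thinning to 1000 UMIs, so these 2 sets rest on 1 UMI against 3 zeros, where the gap is the whole range by construction and that rate does not apply. The share of nuclei with Ank was 9.48% in 1 non-transgenic mouse, below the other 3. Gpnmb also moved in opposite directions with tau in the 2 lines. It was at 6.02 CPM in the P301S+ mouse of the active line, above both non-transgenic mice of that line at 0, and at 0 in both P301S+ mice of the floxed line, against 0 and 1.81 CPM in its non-transgenic mice. That difference was not tested.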

How the results depend on the processing

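Counts of members called were repeated under each alternative, and the cause of a change was not tested where no cause is given. Over all genes, in the order of comparisons below, 11, 0, 144, 346, 0 and 174 were called. With no filter these were 127, 38, 352, 567, 36 and 420. P301S+ against non-transgenic mice called 25 genes with line as a covariate and 0 to 33 with a replicate left out. With doublets kept, IkbkbCA; P301S+ mice gave 74 genes against P301S+ mice and 79 against the knockout. P301S+ against non-transgenic mice called 0 members, but 6 with no filter on low counts, 1 (Ank) with line as a covariate, 5 within the active line with its 1 P301S+ mouse, and 0 to 4 when 1 replicate was left out. The knockout against P301S+ mice called 0, or 1 with no filter, and 0 to 0 with a replicate left out. IkbkbCA; P301S+ against P301S+ mice called 1, or 2 with no filter, 0 with doublets kept, and 1 to 2 with a replicate left out. IkbkbCA; P301S+ against non-transgenic mice called 3, or 6 with no filter and 0 to 4 with a replicate left out. The knockout against non-transgenic mice called 0, or 1 with no filter. IkbkbCA; P301S+ against the knockout called 1, or 4 with no filter, 0 with age as a covariate, 0 with doublets kept, and 0 to 2 with a replicate left out. Outside microglia 0 were called, or 1 with no filter and 0 to 1 with a replicate left out. Shares at an unadjusted p under 0.05 numbered 4, or 1 without thinning and 0 to 4 with a replicate left out, where leaving out a non-transgenic or P301S+ mouse leaves too few for such a p. Pairs of member and cell type past the test numbered 52, and 41 to 51 with a mouse left out.

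Signs turned as follows on the log2 scale. In the knockout against P301S+ mice, line as a covariate gave 0.033 for Ank and 0.24 for Fam20c, the floxed line alone 0.22 for Itgax, 0.13 for Ank and 0.52 for Fam20c, and leaving out a replicate -7.60 to 0.22 for Itgax, -0.56 to 0.13 for Ank and -2.18 to 0.51 for Fam20c. In IkbkbCA; P301S+ against P301S+ mice, Fam20c was at -0.16 with line as a covariate, -0.30 within the active line and -0.78 to 1.58 with a replicate left out, and Timp2 at -0.000489 within that line and -0.020 to 0.44. In the knockout against non-transgenic mice, line as a covariate gave -0.000586 for Cd9 and 0.061 for Cadm1, age 0.24 for Cadm1, and a replicate left out -4.70 to 2.00 for Itgax, -0.17 to 0.47 for Cd9, -0.039 to 0.41 for Timp2 and -0.20 to 0.055 for Cadm1. In IkbkbCA; P301S+ against the knockout, line as a covariate gave -0.39 for Fam20c and -0.058 for Cadm1, age -0.13 for Cadm1, doublets kept -0.15 for Cd9, no perivascular marker nuclei -0.022 for Cd9, and a replicate left out -0.22 to 0.41 for Cd9 and -0.10 to 2.59 for Fam20c. None of these turned values was a call.

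With the title number as a replicate block, the calls stayed at 0 for P301S+ against non-transgenic mice and 0 for the knockout, at 1 for IkbkbCA; P301S+ against P301S+ mice and 3 against non-transgenic mice, and Cd9 in IkbkbCA; P301S+ against the knockout turned to -0.011. Over 22 pairs of mice with the same number the median correlation of deviations was 0.004 (-0.095 to 0.153). In groups of 2 mice the deviations mirror each other, and the numbers repeat in both lines. Whether the numbers pair the mice cannot be told from these values. Groups of 2 mice and at most 154 UMIs for a member under the count filter limit the precision.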
